A study of Mus musculus with 6 samples.

Results

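The receptors through which islet cells read glucagon, the incretins, somatostatin, insulin and insulin-like growth factor were followed in mouse pancreatic islets. They are 10 genes of the 55536 in the count table, taken by symbol: the incretin receptor genes Glp1r and Gipr, the glucagon receptor gene Gcgr, the 5 somatostatin receptor genes Sstr1 to Sstr5, and the insulin and insulin-like growth factor 1 receptor genes Insr and Igf1r. The series asks what the transcription factor KLF4 regulates in alpha cells. Polyadenylated RNA of whole islets was sequenced in 3 control libraries (genotype Klf4+/+;Gcg-iCre) and 3 knockout libraries (genotype Klf4fl/fl;Gcg-iCre), from C57B1/6J mice as the series spells the strain. Both groups carry Gcg-iCre, a Cre driven by the glucagon gene, so deletion is aimed at alpha cells and not at the other islet cells. The labels give neither age nor sex, and do not say whether each library is 1 mouse or a pool, so p-values measure the spread between these libraries.

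GLP-1 and GIP are gut hormones that raise insulin secretion when glucose is present, and glucagon from alpha cells acts on neighbouring beta cells as well as on the liver. Their receptors belong to class B of the G protein-coupled receptors and couple to Gs, which activates adenylyl cyclase and raises cyclic AMP. Somatostatin, from delta cells, restrains both alpha and beta cells through receptors that couple to Gi and lower cyclic AMP. The insulin and IGF1 receptors are tyrosine kinases that signal through insulin receptor substrates, PI3-kinase and AKT.

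Totals ran from 101277200 to 110243918 counts per library. Klf4 itself had 3148, 2879 and 2015 normalized counts (counts divided by a size factor per library) in the controls and 2340, 2540 and 2277 in the knockouts, in the order of replicates 1 to 3 that is kept throughout, so its whole-islet count overlapped between the genotypes. Xist was at 77938 or more normalized counts in every control library and at 30.2 or fewer in every knockout library, while the Y-linked gene Ddx3y had 0 counts in every control library and 5476 or more in every knockout library. Sex-linked transcripts therefore divide the libraries exactly as genotype does, and the 2 cannot be told apart in any difference given here. The marker genes chosen for alpha (10 genes), beta (12), delta (5) and PP cells (2) were detected in all 6 libraries. Knockout libraries also differed in other cell types' markers: summed acinar markers (8 genes) ran from 4390 to 9071 in controls, as CPM (counts per library total, scaled alike in all libraries), and from 11556 to 15894 in knockouts, mesenchymal markers (8 genes) from 753 to 891 and from 1181 to 1235, and alpha markers from 38461 to 56529 and from 29419 to 35427. Gcg alone made up 93.2% to 94.9% of the alpha sum; the other 9 alpha genes summed to 2333 to 2879 CPM in controls and to 1858 to 2198 in knockouts, and 3 of them (Gc, Slc7a2 and Pou3f4) had log2 fold changes of 0.0025 to 0.053. Hepatocyte markers (5 genes) were at 1.76 to 3.16 CPM in controls but at 774, 27.3 and 2.20 in knockout replicates 1 to 3. In bulk RNA, fewer cells of a type and less RNA per cell cannot be told apart.

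**Figure D1:**
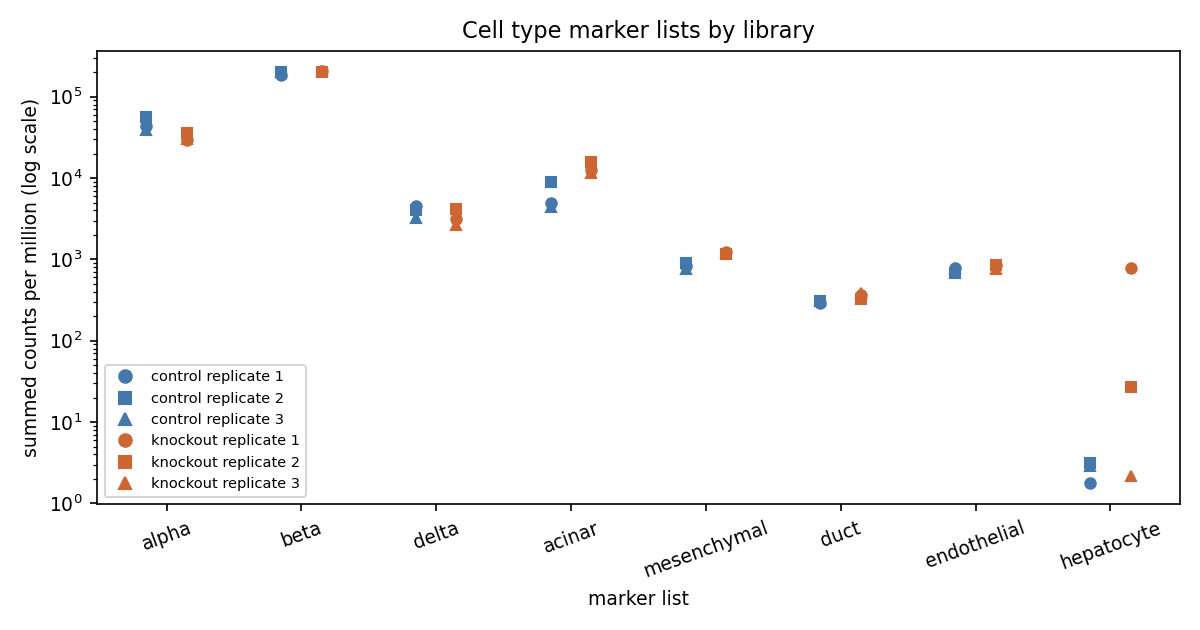
Summed counts scaled to the library total (CPM, log axis) of 8 cell type marker lists in each library; colour marks genotype and symbol shape the replicate number. Acinar and mesenchymal lists are higher in all 3 knockout libraries, the alpha list is lower in all 3, and the hepatocyte list stands out in knockout replicates 1 and 2 at 774 and 27.3.

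Only Gcgr passed the test. With genotype as the single term, DESeq2 gave an adjusted p under 0.05 for 1 of the 8 receptors that received an adjusted p-value (all 10 passed the filter of 10 counts in total; Sstr4 and Sstr5 were too low for an adjusted p), against 2.19% of the 17797 genes tested (1.53% higher, 0.657% lower). The quasi-likelihood test of edgeR called 0 of the 10, against 0.115% of the genes it tested. At an unadjusted p under 0.05, DESeq2 counted 3 receptors (Gcgr, Sstr2 and Insr) and edgeR 4 (those and Sstr5), against 11.5% and 9.48% of genes. Of the 8 receptors with a mean of at least 50 normalized counts, 4 had groups that did not overlap, 3 higher (Gcgr, Sstr2 and Insr) and 1 lower (Sstr1), against 18% of the 15811 genes at that level (9.42% higher, 8.54% lower). Over those 8 receptors the median log2 fold change was 0.16, beside -0.0061 over all genes tested.

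Levels of different receptors were compared per exon length, as TPM (length-scaled shares of the library) computed from the deposited counts and the summed exon lengths of the GENCODE M21 annotation. Glp1r stood first at 474 ± 41.4 TPM (SD over all 6 libraries) and ranked 98 among the 30500 genes with any count. Sstr3 followed at 203 ± 28.3 TPM and Gipr at 79.8 ± 14.2 TPM. No library range overlapped between these neighbours, each step being 2.34-fold to 2.54-fold down to Gipr. The next 3 were Igf1r at 23.7 ± 2.53, Gcgr at 22.7 ± 3.92 and Insr at 18.6 ± 2.08 TPM, and neighbours among them overlapped. Sstr2 lay at 5.40 ± 1.42 and Sstr1 at 1.40 ± 0.22 TPM, each clear of its neighbours. Sstr4 and Sstr5 ended the order at 0.17 ± 0.080 and 0.076 ± 0.059 TPM, and their ranges overlapped.

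**Figure D2:**
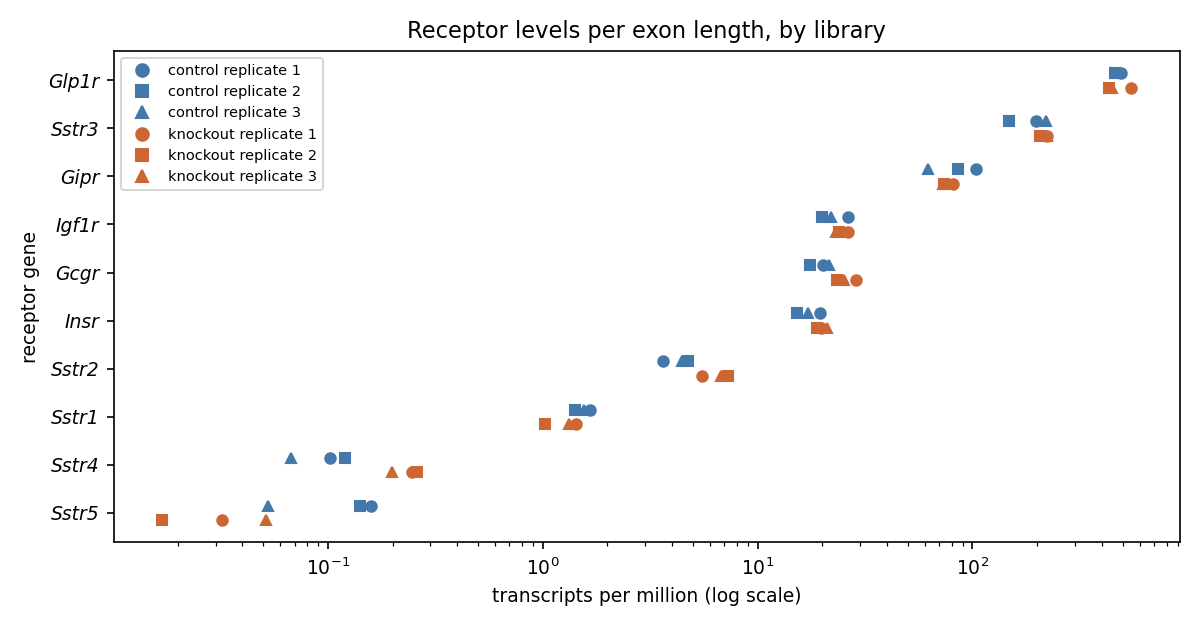
Level of each receptor per exon length in TPM (log axis) in the 6 libraries, ordered by the mean; colour marks genotype and symbol shape the replicate number. Glp1r, Sstr3 and Gipr occupy separate ranges at the top, and Igf1r, Gcgr and Insr share a range near 20 TPM.

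Glp1r, the receptor for GLP-1 on beta cells, did not separate the genotypes. The gene lies on GRCm38 chromosome 17, 30901817 to 30940791, plus strand (ENSMUSG00000024027). It was measured at 116871, 120523 and 119523 (normalized counts) across the controls and at 137444, 111607 and 110517 across the knockouts. Knockout replicate 1 was the highest library and the other two knockouts the lowest, so the knockouts bracketed the controls. Glp1r had a log2 fold change of 0.01 ± 0.093 (SE), with a 95% confidence interval from a change of -11.2% to one of 14.3% (DESeq2 adjusted p = 0.989). The controls had a mean of 118973 with an SD of 1887, and the SD of the knockouts was 15241.

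Gipr, the receptor for GIP, is known from both beta and alpha cells. It lies on chromosome 7, 19156061 to 19166127, minus strand (ENSMUSG00000030406). Control replicates 1 to 3 held 14808, 13355 and 9543 normalized counts and knockout replicates 1 to 3 held 12145, 11476 and 10822. Control replicate 3 was the lowest of all 6 libraries, below every knockout, while the other two controls were the highest. At -0.13 ± 0.14 (SE), the log2 fold change did not pass (DESeq2 adjusted p = 0.83; confidence interval from -24.0% to 9.82%). Without control replicate 3 it was -0.29 with a DESeq2 adjusted p of 0.00556, and without control replicate 1 it was 0.0028, so single control libraries set its value. Relative to Glp1r in the same library, Gipr TPM was at least 4.73-fold lower in every library, and control libraries held both ends of the range.

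Gcgr, the glucagon receptor, was higher in all 3 knockout libraries. It lies on chromosome 11, 120530699 to 120538986, plus strand (ENSMUSG00000025127), and no exon of it, or of any of the other 9 receptors, overlaps an exon of another annotated gene. Control replicates 1 to 3 held 2156, 2065 and 2487 normalized counts and knockout replicates 1 to 3 held 3230, 2726 and 2806. Every knockout library lay above every control, with means of 2921 ± 271 and 2236 ± 222 (SD, n = 3 each). The log2 fold change was 0.39 ± 0.11 (SE), a rise of 30.7% with a 95% confidence interval from 12.8% to 51.3% (DESeq2 adjusted p = 0.0229, against 1.53% of genes called higher). In edgeR the fold change was 0.39 with an adjusted p of 0.232.

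Hepatocytes express the glucagon receptor strongly. The library with the highest Gcgr, knockout replicate 1, was also the one with 774 CPM of hepatocyte markers. In DESeq2, 3 of the 5 markers passed as higher (Ahsg, Apoa1 and Serpina3k), while Alb and Fgb had no adjusted p. In edgeR none passed (adjusted p from 0.246 to 0.342). Serpina3k was at 7530, 288 and 0 normalized counts across the knockouts. Knockout replicate 3, whose hepatocyte markers were at the control level (2.20 CPM, with Serpina3k at 0 as in every control), held 2806 normalized counts of Gcgr, above all 3 controls. Without knockout replicate 1 the log2 fold change of Gcgr was 0.31 and did not pass (DESeq2 adjusted p = 0.351). It also did not pass without control replicate 1 (0.36, adjusted p = 0.124), control replicate 2 (0.33, adjusted p = 0.195) or knockout replicate 3 (0.41, adjusted p = 0.083), and its adjusted p over all 12 alternatives ran from 0.000224 to 0.351. The part of hepatocyte RNA in the Gcgr difference was not tested, nor was that of the acinar and mesenchymal cells, whose markers were higher in the same libraries.

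Because beta cells make up most of a mouse islet, Gcgr was also set against the mean of the beta markers within each library, on the log2(normalized count + 1) scale. This relative level was -6.12 ± 0.089 among controls and -5.68 ± 0.13 among knockouts (SD over 3 libraries), which differ by 0.44 with no overlap. Of the 12 beta markers themselves, 1 (Nkx6-1) was lower and 0 higher by DESeq2, and their median log2 fold change was -0.052. Against the alpha markers the difference was 0.69, again with no overlap. The exact two-sided permutation test gave p = 0.1 for each, the smallest that 3 libraries against 3 allow. Against the delta markers the difference was 0.56 and the groups overlapped (exact permutation p = 0.2). The alpha markers were themselves lower in the knockouts, and against them 6 of 8 receptors stood higher without overlap, Glp1r among them (0.31), and 0 lower, beside 50.1% and 0.234% of the 15811 genes with a mean of at least 50 normalized counts. Against the beta markers 4 receptors were higher and 1, Sstr1, lower without overlap, beside 14.7% and 3.58% of genes. Against the delta markers 1, Sstr2, was higher and 0 were lower, beside 6.77% and 0.632%. Glp1r TPM was 21.7 to 26.3 times Gcgr TPM in the controls and 17.8 to 19.2 times in the knockouts, so the 2 class B receptors stood closer together in every knockout library.

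The bases before the annotated starts of Gcgr, of Sstr2 (the receptor nearest to the threshold without passing) and of Glp1r (the most abundant and least changed on average) are shown because the deleted factor belongs to the KLF family, which binds CACCC boxes. RefSeq promoter windows of GRCm38.p6 (250 bases before to 50 after a start) were found for 6 of the 10 receptors. Each sequence is cut before the first base that RefSeq or GENCODE places in the gene, reads 5′ to 3′ on the plus strand, and has in capitals every CACCC or its reverse complement GGGTG, and every TGACGTCA, the palindromic cyclic AMP response element bound by CREB.
Gcgr, chr11:120530477-120530698: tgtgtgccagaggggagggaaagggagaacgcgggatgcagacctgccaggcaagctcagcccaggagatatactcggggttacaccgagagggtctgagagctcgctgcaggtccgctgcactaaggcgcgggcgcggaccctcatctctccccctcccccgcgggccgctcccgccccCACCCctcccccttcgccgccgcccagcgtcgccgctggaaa
Sstr2, chr11:113619077-113619326: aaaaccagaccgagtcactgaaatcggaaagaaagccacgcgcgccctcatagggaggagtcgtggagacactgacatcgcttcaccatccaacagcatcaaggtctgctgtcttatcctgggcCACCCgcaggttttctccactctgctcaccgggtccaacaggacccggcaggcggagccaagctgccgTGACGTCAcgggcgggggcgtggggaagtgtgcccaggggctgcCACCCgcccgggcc
Glp1r, chr17:30901617-30901816: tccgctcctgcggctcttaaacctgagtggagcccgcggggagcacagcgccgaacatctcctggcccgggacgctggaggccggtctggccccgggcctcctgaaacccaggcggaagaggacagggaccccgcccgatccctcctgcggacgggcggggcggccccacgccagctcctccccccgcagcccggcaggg
The Gcgr stretch of 222 bases holds 1 CACCC, the Sstr2 stretch of 250 bases holds 2 CACCC and 1 TGACGTCA, and the 200 bases of Glp1r hold none of these letters. Over whole windows of 300 bases, which run past the start, Glp1r and Gcgr each had 1 CACCC or GGGTG, as did 6 of the 7 windows of the 6 receptors at least once, so the letters do not separate Gcgr from Glp1r. CACCC or GGGTG occurred in 57.5% of all 32851 promoter windows. TGACGTCA occurred in 1.79% of windows and, among the receptor windows, in that of Sstr2 alone. These are matches of letters, not measured binding.

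Somatostatin receptor transcripts were nearly all Sstr3, the subtype found in mouse beta and delta cells, which lies on chromosome 15, 78537008 to 78544685, minus strand (ENSMUSG00000044933). It made up 95.8% to 97.3% of the summed TPM of the 5 subtypes in every library. Control replicates 1 to 3 held 34808, 28865 and 42190 normalized counts of Sstr3 and knockout replicates 1 to 3 held 41255, 39673 and 40725. The controls spread more widely than the knockouts (SD 6676 and 805), and control replicate 3 was above all knockouts. The log2 fold change of 0.20 ± 0.12 (SE) did not pass (DESeq2 adjusted p = 0.549, confidence interval from -2.13% to 34.9%), except without control replicate 3 (0.35, adjusted p = 0.00165), and was 0.075 without control replicate 2 (adjusted p = 0.955). Control replicate 3 was at once the highest library in Sstr3 and the lowest in Gipr.

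Sstr2, the subtype through which somatostatin acts on mouse alpha cells, had the largest fold change among the 8 receptors with an adjusted p-value, without passing. It lies on chromosome 11, 113619342 to 113626028, plus strand (ENSMUSG00000047904). Control replicates 1 to 3 held 317, 459 and 424 normalized counts and knockout replicates 1 to 3 held 507, 698 and 615. All 3 knockouts were above all 3 controls. Sstr2 had a log2 fold change of 0.60 ± 0.19 (SE), or 1.52-fold with a 95% confidence interval from 1.18-fold to 1.95-fold, and the DESeq2 adjusted p was 0.0541. In edgeR its adjusted p was 0.335.

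Its call turned on small choices: the DESeq2 adjusted p was 0.0496 without the filter on low counts, 0.0468 with a filter of 10 counts in 3 libraries and 0.0473 without control replicate 3, while it was 0.337 without knockout replicate 2 and 0.268 without knockout replicate 3. Against the mean of the alpha markers in the same library, Sstr2 was at -5.14 ± 0.20 among controls and -4.24 ± 0.17 among knockouts (SD over 3 libraries, log2 scale), which differ by 0.91 with no overlap (exact permutation p = 0.1, the smallest possible; 50.1% of genes were higher on this scale without overlap). The alpha markers ran the opposite way: 5 of the 10 were lower and 0 higher by DESeq2. Acinar markers were higher in the same 3 libraries, with 1 of 8 passing in DESeq2, and duct markers ran from 287 to 310 CPM in controls and from 329 to 385 in knockouts, with 2 of 7 passing; their part in the Sstr2 count was not tested.

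Sstr1 was lower in each knockout library than in each control, but by little. The gene lies on chromosome 12, 58211772 to 58214444, plus strand (ENSMUSG00000035431). It was at 139, 131 and 141 (normalized counts) across the controls and at 127, 92.8 and 115 across the knockouts. At -0.30 ± 0.25 (SE) on the log2 scale, Sstr1 did not pass (DESeq2 adjusted p = 0.764, edgeR adjusted p = 0.731). The confidence interval ran from -42.0% to 14.5%. Sstr1 supplied 0.69% to 0.92% of somatostatin receptor TPM in controls and 0.47% to 0.63% in knockouts.

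Sstr4 and Sstr5 were close to the limit of the libraries. Sstr4 (chromosome 2, 148395344 to 148396767, plus strand, ENSMUSG00000037014) had 6, 8 and 4 raw counts in control replicates 1 to 3 and 16, 16 and 12 in knockout replicates 1 to 3. Sstr5 (chromosome 17, 25489875 to 25497288, minus strand, ENSMUSG00000050824), a subtype usually listed for beta cells, had 18, 18 and 6 raw counts in controls and 4, 2 and 6 in knockouts. The groups did not overlap in normalized counts for either gene, Sstr4 being higher and Sstr5 lower in knockouts. DESeq2 gave log2 fold changes of 1.28 ± 0.82 and -1.81 ± 0.97 (SE) with no adjusted p, and edgeR gave adjusted p-values of 0.578 and 0.524. Every count of both genes was even, as were 86.57% of all values from 1 to 10 in the table. Counting each mate of a read pair would give mostly even low counts, and a count of 4 could then stand for fewer RNA fragments; the setting is not given in the sources used here. With all counts halved, the DESeq2 adjusted p was 0.0302 for Gcgr and 0.0709 for Sstr2. For Sstr5 the nearest libraries of the 2 groups each had 6 raw counts, and a difference in either rare receptor could not be established at this depth.

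**Figure D3:**
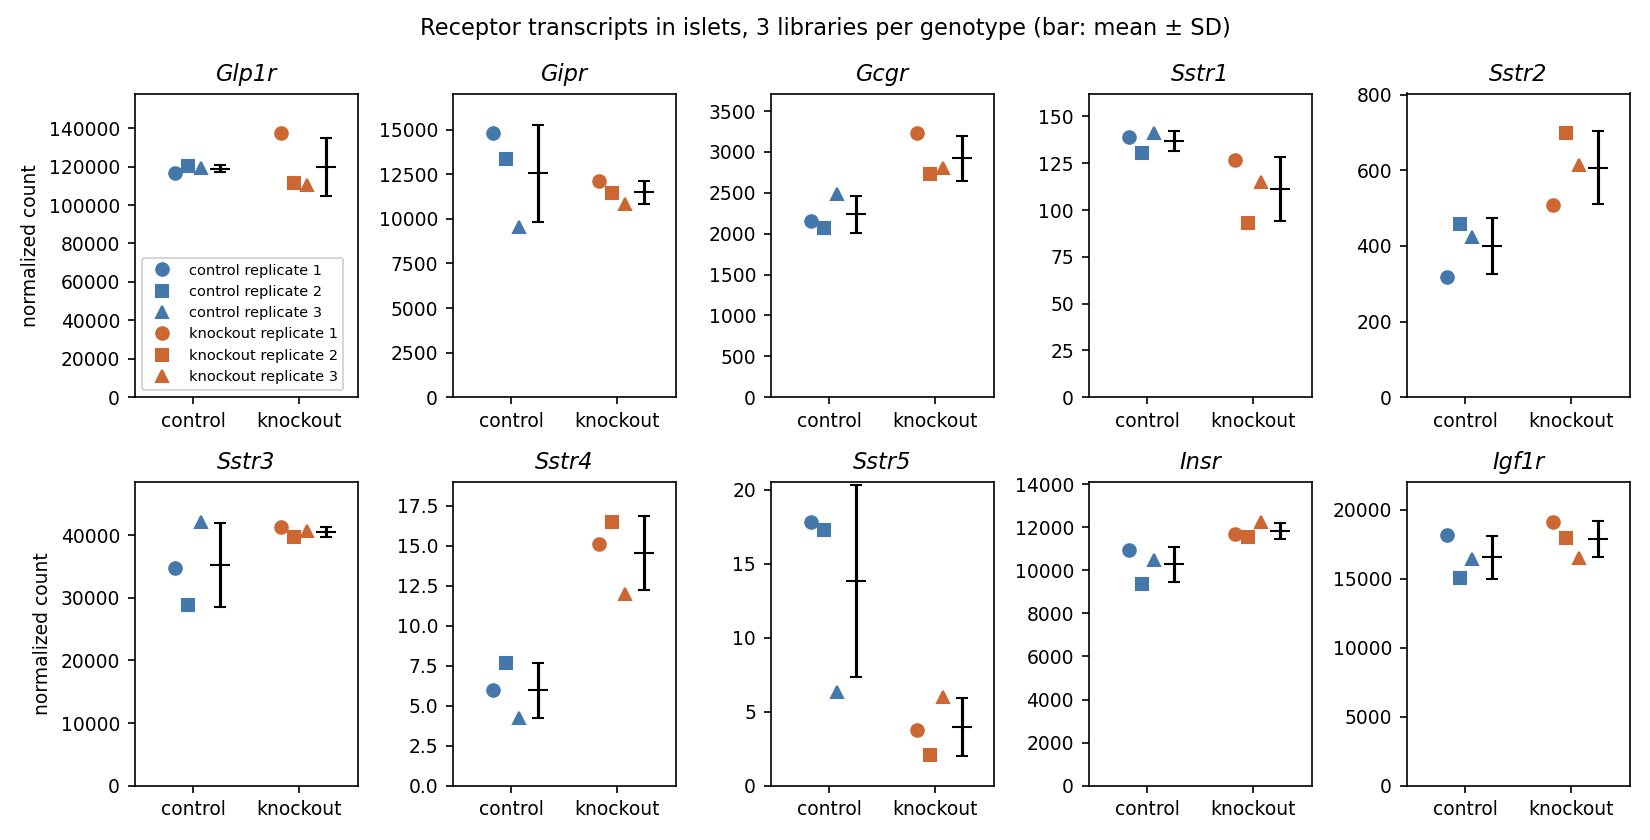
Normalized count of each receptor in each library (points; colour marks genotype, shape the replicate number) with the group mean ± SD (black bars); each vertical axis starts at 0 and has its own scale. The groups are apart for Gcgr, Sstr2 and Insr upward and for Sstr1 downward, and overlap for Glp1r, Gipr, Sstr3 and Igf1r; Sstr4 (upward) and Sstr5 (downward), at the lowest counts, are apart too.

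Insr, the insulin receptor, had slightly higher counts in the knockout libraries that did not pass. It lies on chromosome 8, 3122061 to 3279617, minus strand (ENSMUSG00000005534). Control replicates 1 to 3 held 10958, 9375 and 10502 normalized counts and knockout replicates 1 to 3 held 11701, 11549 and 12265. The groups did not overlap, and their means were 10278 ± 815 and 11838 ± 378 (SD, n = 3 each). Insr had a log2 fold change of 0.20 ± 0.081 (SE), with a confidence interval from 3.20% to 28.6% that does not allow for the number of genes tested (DESeq2 adjusted p = 0.204, edgeR adjusted p = 0.382). It stayed between 0.14 and 0.25 when single libraries were left out and passed in none of the 12 alternatives.

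Igf1r, the receptor for IGF1 and IGF2 (chromosome 7, 67952827 to 68233668, plus strand, ENSMUSG00000005533), overlapped between genotypes. It was at 18207, 15080 and 16413 (normalized counts) across the controls and at 19151, 17976 and 16540 across the knockouts. The log2 fold change of 0.11 ± 0.092 (SE) did not pass (DESeq2 adjusted p = 0.756, confidence interval from -4.74% to 22.4%). Igf1r TPM was 1.10 to 1.36 times Insr TPM in the 6 libraries, so the 2 kinase receptors lay within 1.36-fold of each other. Both are expressed by many cell types, and mesenchymal markers, of which 5 of 8 were higher by DESeq2, moved with the genotype; their part in the Insr and Igf1r counts was not tested.

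Among the ligand genes, Gcg, the gene of glucagon and GLP-1, was the only 1 of the 6 with an adjusted p-value to pass, against 2.19% of all genes. It fell by 0.56 ± 0.13 on the log2 scale (SE, DESeq2 adjusted p = 0.00332, edgeR adjusted p = 0.402). The call on Gcg was lost without knockout replicate 1 (DESeq2 adjusted p = 0.144) and without knockout replicate 3 (0.0826). Sst, the gene of somatostatin, was at 443209, 404907 and 335783 (normalized counts) across the controls and at 307041, 421489 and 258470 across the knockouts, and did not pass (log2 fold change -0.26, adjusted p = 0.787). Knockout replicate 2 was its highest knockout library, and without it Sst passed at -0.48 (DESeq2 adjusted p = 0.0273), while without knockout replicate 3 it was at -0.12. Ins1 and Ins2, for the 2 mouse insulins, had log2 fold changes of 0.080 ± 0.088 and 0.024 ± 0.071 (SE). Igf1 and Igf2 had 0.30 ± 0.22 and -0.43 ± 0.25 (adjusted p = 0.683 and 0.542). Gip had 0 counts in each library, which allows up to 3 counts per library, and Cort, for the somatostatin relative cortistatin, had 0 to 14 counts.

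**Figure D4:**
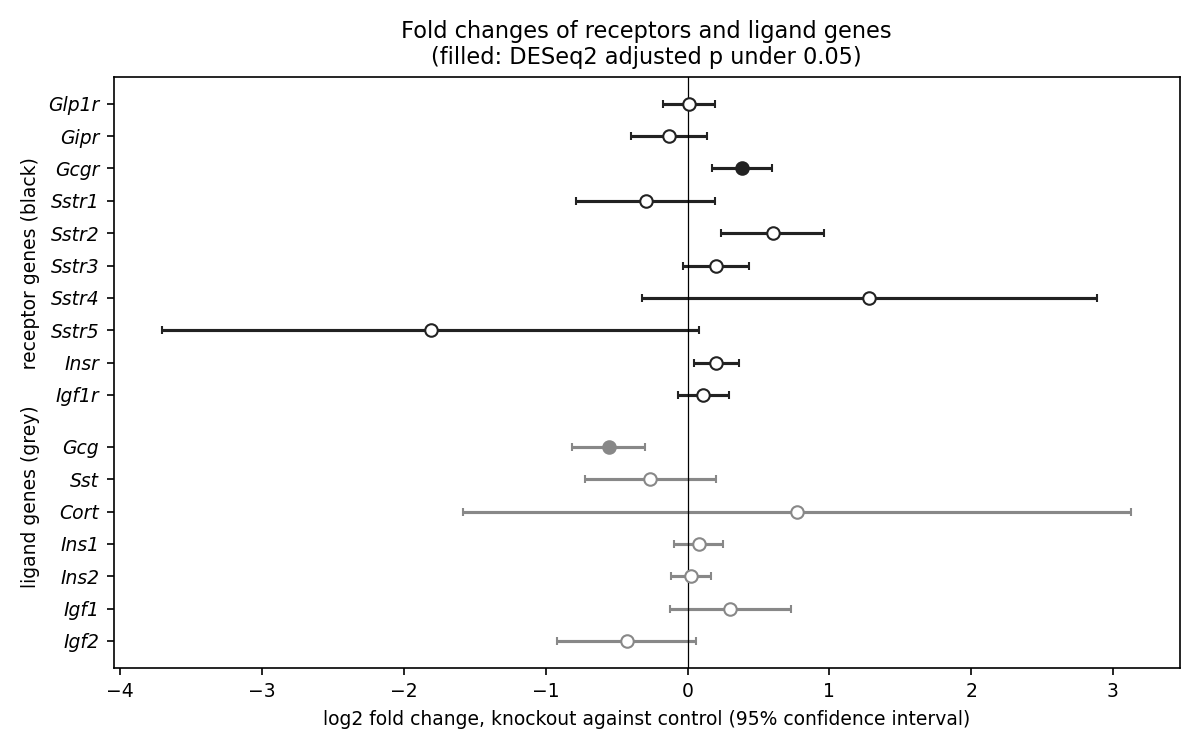
Log2 fold change of knockout against control for the 10 receptors (black) and the 7 ligand genes with counts (grey), with 95% confidence intervals over 3 libraries per genotype; filled symbols have a DESeq2 adjusted p under 0.05. Only Gcgr at 0.39 and Gcg at -0.56 are filled, on opposite sides of 0, and the widest intervals belong to Sstr4, Sstr5 and Cort.

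Over all pathway lists, ligand genes and related receptors included, 6 of 116 genes with an adjusted p-value passed in DESeq2 (5.17%, against 2.19% of all genes) and 0 in edgeR, where 0.115% of all genes passed. The lists were chosen with earlier results of these data known, so a share above that of all genes cannot be read as a result about them. The median log2 fold change was -0.0055 over the 116 listed genes with an adjusted p-value and -0.0061 over all genes tested. By list, over genes with an adjusted p-value, it ran from -0.12 for the 6 ligand genes and -0.053 for the Gi arm to 0.014 for the related receptors. In the Gs and cyclic AMP list, 2 of 29 fell and 0 rose. Crem, the cyclic AMP response element modulator, was at 2124, 2115 and 2025 (normalized counts) across the controls and at 1549, 1564 and 1596 across the knockouts. Its log2 fold change was -0.41 ± 0.083 (SE, DESeq2 adjusted p = 0.000183, edgeR adjusted p = 0.118), and leaving out single libraries moved it only between -0.43 and -0.40. Prkar1a, a regulatory subunit of the cyclic AMP-dependent kinase, averaged 58203 ± 2601 in controls and 50106 ± 659 in knockouts (normalized counts, SD over 3 libraries; log2 fold change -0.22, DESeq2 adjusted p = 0.037). Its call was lost in 7 of the 12 alternatives, namely edgeR (adjusted p = 0.366), no filter (0.0567), the replicate block (0.0631), halved counts (0.062) and without knockout replicate 1 (0.329), 2 (0.0742) or 3 (0.155).

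None of the 16 Gi arm genes given an adjusted p, which include G protein subunits and GIRK potassium channels, passed in DESeq2, where 2.19% of all genes did. The smallest adjusted p there was that of Gnb5, a beta subunit of G proteins, at 0.239 with a log2 fold change of -0.22. None of the 18 genes of desensitisation and ligand clearance passed either. Among them Dpp4, the protease that inactivates GLP-1 and GIP, came nearest with a log2 fold change of -0.26 and an adjusted p of 0.254; without control replicate 3 it passed at -0.36 (DESeq2 adjusted p = 0.00349), and without control replicate 2 it was at -0.18.

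Of the 35 genes of the insulin and IGF cascade, 2 rose and 0 fell in DESeq2, against 1.53% of all genes higher and 0.657% lower. Trib3, a pseudokinase that binds AKT, was at 286, 165 and 363 (normalized counts) across the controls and at 460, 450 and 605 across the knockouts. For Trib3 the log2 fold change was 0.90 ± 0.26 (SE, DESeq2 adjusted p = 0.029, edgeR adjusted p = 0.333). Eif4ebp1, a translation repressor controlled by mTOR, averaged 1425 ± 302 in controls and 1972 ± 85.8 in knockouts (normalized counts, SD over 3 libraries; log2 fold change 0.47, DESeq2 adjusted p = 0.0491, edgeR adjusted p = 0.327). Both passed in 1 of the 6 fits that left out a library, the fit without control replicate 3. The substrate genes Irs1, Irs2 and Irs4 and the 3 AKT genes were among the 33 that did not pass.

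Among 12 related receptors with an adjusted p-value, Gpr119 alone passed in DESeq2 (8.33%, against 2.19% of all genes). GPR119 is a Gs-coupled lipid receptor of islet and gut endocrine cells, and its gene was at 2176, 2127 and 3431 (normalized counts) across the controls and at 1354, 1633 and 1374 across the knockouts. Gpr119 changed by -0.83 ± 0.17 on the log2 scale (SE, DESeq2 adjusted p = 0.000334, edgeR adjusted p = 0.186). It passed with each library left out, at -0.95 to -0.57, although control replicate 3 stood well above the other controls.

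**Figure D5:**
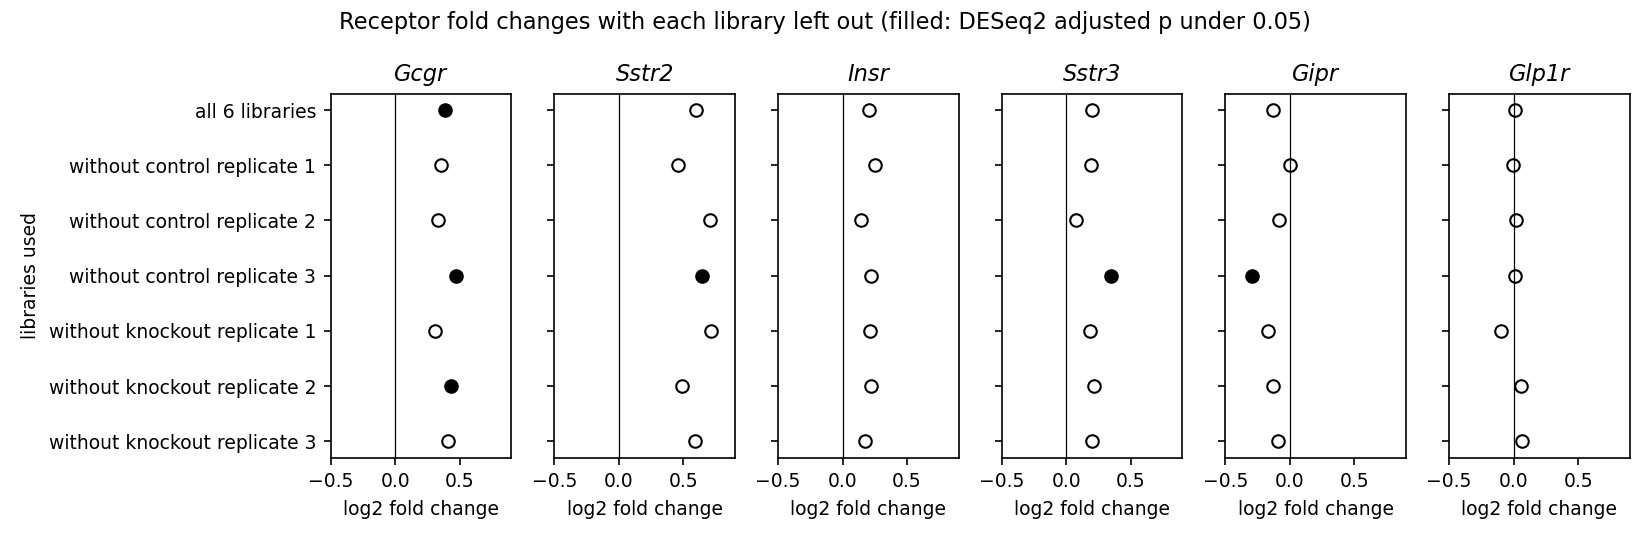
Log2 fold change of 6 receptors with all 6 libraries (top row) and with each library left out in turn; filled symbols have a DESeq2 adjusted p under 0.05. Gcgr stays between 0.31 and 0.47 and is filled in 2 of the 6 reduced fits; without control replicate 3, Sstr2, Sstr3 and Gipr are filled as well.

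With each library left out, the share of all genes past the threshold in DESeq2 was 2.49% without control replicate 1, 1.56% without control replicate 2, 6.28% without control replicate 3, 0.88% without knockout replicate 1, 2.25% without knockout replicate 2 and 1.49% without knockout replicate 3. The fit in which most receptors passed, that without control replicate 3, was thus the fit in which most genes of any kind passed.

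Profiles over the 6 libraries were compared by the root mean square difference between log2(normalized count + 1) values after subtracting each gene's mean, over 15811 genes. The gene nearest to Gcgr was Ctsc, at 0.049 log2 units, where the spread of Gcgr itself was 0.22. The nearest to Sstr2 was Muc1, a gene of the duct marker list, at 0.095 where the spread of Sstr2 was 0.37. For Insr it was Cped1 at 0.020, for Igf1r Rinl at 0.029, for Glp1r Zfp30 at 0.037, for Gipr Ccdc88c at 0.029, for Sstr3 Gm15418 at 0.042 and for Sstr1 Zfp593 at 0.048. With 6 libraries and 15811 genes some close profile is found for any gene, so these are descriptions only.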

How the data were processed

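Islet RNA of 3 control and 3 knockout libraries was compared. The deposited table holds raw counts of reads per gene; the submitters' processing notes name FastQC, STAR, featureCounts, DESeq2 and mm10, and the file's name adds cutadapt trimming. Versions, strand and mate settings are not given in the sources used here. All 55536 gene IDs and symbols match GENCODE M21 (GRCm38), which supplied coordinates and exon lengths. Each column was tied to a library by the genotype and number in its name.

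Genes with at least 10 counts in total were fitted in DESeq2 1.42.0 (R 4.3.3; size factors, Wald test, unshrunken fold changes, Benjamini-Hochberg adjusted p under 0.05 over all genes), the design the series states. The alternatives were edgeR 4.0.16 (TMM, quasi-likelihood), TMM factors in DESeq2, other filters, a replicate block and each library left out; halved counts were added after seeing the data. Both tests were checked on simulated data. Depth was 101277200 to 110243918 counts per library; the limit from a count of 0 covers counting error only, while confidence intervals of fold changes (Wald, DESeq2) include the spread between libraries. The members, marker and pathway lists were chosen with earlier results of these data known. Named were all receptors and ligand genes, the pathway genes past the threshold (at most 5 per list, or else the smallest adjusted p), and each receptor's nearest profile among genes with a mean of at least 50 normalized counts.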

Additional observations from a re-analysis of the deposited data

How the results depend on the processing

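The number of genes past the threshold, 389 (272 higher, 117 lower), was 29 in edgeR (24 higher, 5 lower) and ran from 153 to 952 when single libraries were left out, with the fewest when knockout replicate 1 was out and the most when control replicate 3 was out; the cause was not tested. The number of receptors past it, 1, was 0 in edgeR, 2 without the filter on low counts, 2 with the stricter filter (Gcgr and Sstr2 in both) and 0 to 4 when single libraries were left out; it was 1 with halved counts and with TMM factors. Pathway genes past it, 6, were 0 in edgeR and 2 to 12 when single libraries were left out. A replicate block in DESeq2 gave 405 genes, 281 of them shared with the fit without it, and 2 receptors, Gcgr (adjusted p = 0.0291) and Sstr2 (0.025); same-numbered libraries did not deviate together (correlations of -0.0482, -0.0587 and 0.0105 over 15811 genes), so the numbers pair nothing. Over the 12 alternatives, 82 of 96 fold changes of the 8 receptors with an adjusted p-value held both sign and call, 5 lost a call, 6 gained one and 3 changed sign; Sstr4 and Sstr5 had no call to hold, and Sstr5 was absent under the stricter filter. Some values changed sign: with single libraries left out, Glp1r ran from -0.10 to 0.065, Gipr from -0.29 to 0.0028 and Ins2 from -0.032 to 0.053. Relative to marker sets, Glp1r against beta ran from -0.034 to 0.12, Gipr against beta from -0.27 to 0.099, Gipr against delta from -0.019 to 0.20, Sstr1 against alpha from -0.13 to 0.16 (0.019 with a pseudocount of 10) and Sstr1 against delta from -0.27 to 0.13; the cause was not tested. Among the receptors, depth limits Sstr4 and Sstr5.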
